A study of Mus musculus with 94 samples.

Results

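The Lx and Lx2 elements are copies of 6 subfamilies of LINE-1 (L1) retrotransposons in the mouse genome, named Lx, Lx2, Lx2A, Lx2A1, Lx2B and Lx2B2. Members were the copies whose annotated subfamily is Lx or begins with Lx2, and 2 copies (Lx2_dup13255 and Lx2A_dup118) were left out. The rule used names and no counts, and it gave 24991 of the 430083 L1 copies in the table (5.81%), of which 10061 are Lx, 6799 Lx2, 519 Lx2A, 1051 Lx2A1, 2448 Lx2B and 4113 Lx2B2. RNA of cortex and hippocampus was sequenced from wild-type (WT) and Ts65Dn (TS) male mice. The labels give an age of 3 to 4 months for the mice used, and the study's text a treatment of 4 months with tissue taken afterwards, so that the age at which RNA was sampled is not given in the sources used here. In Ts65Dn mice, segments of MMU16 and MMU17 are present in an additional copy, and the strain is used as a model of Down syndrome. The mice were offspring of Ts65Dn females and B6C3F1/OlaHsd hybrid males, and the WT mice were littermates, so all groups share this mixed background. Treated mice (-t) received lamivudine, an inhibitor of reverse transcriptase, at 3 mg/kg in drinking water, and non-treated mice (-nt) received water. Cortex gave 48 libraries (9 WT-nt, 9 TS-nt, 17 WT-t and 13 TS-t) and hippocampus 46 (8 WT-nt, 8 TS-nt, 17 WT-t and 13 TS-t). Both tissues were sequenced from 46 mice. Each label names 1 animal. The methods also describe pooling of samples within a condition before RNA was measured, so that a library may be a pool, and the spread and the p-values would then be those of pools.

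A complete L1 encodes an RNA-binding protein and a protein with endonuclease and reverse transcriptase activities, and it moves by copying its own RNA into DNA at a new place in the genome. Lx and Lx2 belong to an older L1 lineage of murine rodents, and the mouse copies known to move belong to the younger L1Md subfamilies. Most old copies are cut short at the 5′ end and have lost their reading frames, and many lie within introns, so that a read counted on such a copy can stem from the RNA of a gene around it as well as from the copy itself. Lamivudine acts on the step from RNA to DNA and not on transcription.

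Libraries held between 186545 and 1165192 L1 counts in cortex and between 178454 and 403378 in hippocampus. In cortex, 8 libraries stood apart on the first principal component, by over 3 median absolute deviations (scaled to the SD of a normal distribution). They were WT-t mice 1, 2, 3 and 16, TS-t mice 1 and 2, TS-nt mouse 1 and WT-nt mouse 1. No hippocampus library did. WT-nt mouse 1 had the largest L1 total and the highest share of L1 counts on Lx and Lx2 copies, 7.62%. WT-t mouse 1 had the lowest share, 3.16%, on 154 copies. Numbers that name the mice begin with 20 for all non-treated mice and with 18, 19 or 20 for treated mice, so that treatment and the kind of number cannot be told apart except among mice with 20. Marker genes of the tissues are not in the table of L1 counts, and the tissue labels were not checked against them.

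Most members had few reads. A count in at least 1 library was seen for 21212 members in cortex (84.9%) and for 14106 in hippocampus (56.4%), and 1690 members had none in either tissue. Of all L1 copies, 81.5% had a count in cortex and 63.0% in hippocampus. The filter on low counts (edgeR's filterByExpr) was passed by 303 members in cortex and 206 in hippocampus, of 5416 and 4238 L1 copies that did. Those members held 43.6% of the Lx and Lx2 counts in cortex and 48.3% in hippocampus. Of Lx, 149 copies passed in cortex and 101 in hippocampus. Lx2 followed with 71 and 48 and Lx2B2 with 52 and 31. Lx2B had 23 and 16, Lx2A1 7 and 6, and Lx2A 1 and 4.

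Counts were concentrated on a small part of the copies, and how strongly differed between subfamilies. In cortex, 50% of the counts of all members lay on 550 of 24991 copies, and in hippocampus on 245. For all 430083 L1 copies these numbers were 5347 and 2034, so that concentration was found over the whole table and was not particular to the members. Lx_dup18222 held 18.2% of the Lx counts in cortex and 21.8% in hippocampus. Lx2B2_dup4157 held 23.2% and 29.3% of the Lx2B2 counts, and Lx2A1_dup2088 16.6% and 16.1% of the Lx2A1 counts. Lx2 and Lx2B had no such copy. Lx2_dup7405 held 4.31% of the Lx2 counts in cortex and 4.64% in hippocampus, and Lx2B_dup2146 4.84% and 9.83% of the Lx2B counts. The first copy of Lx2A was Lx2A_dup516 in cortex, with 3.20%, and Lx2A_dup1343 in hippocampus, with 5.80%.

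**Figure D1:**
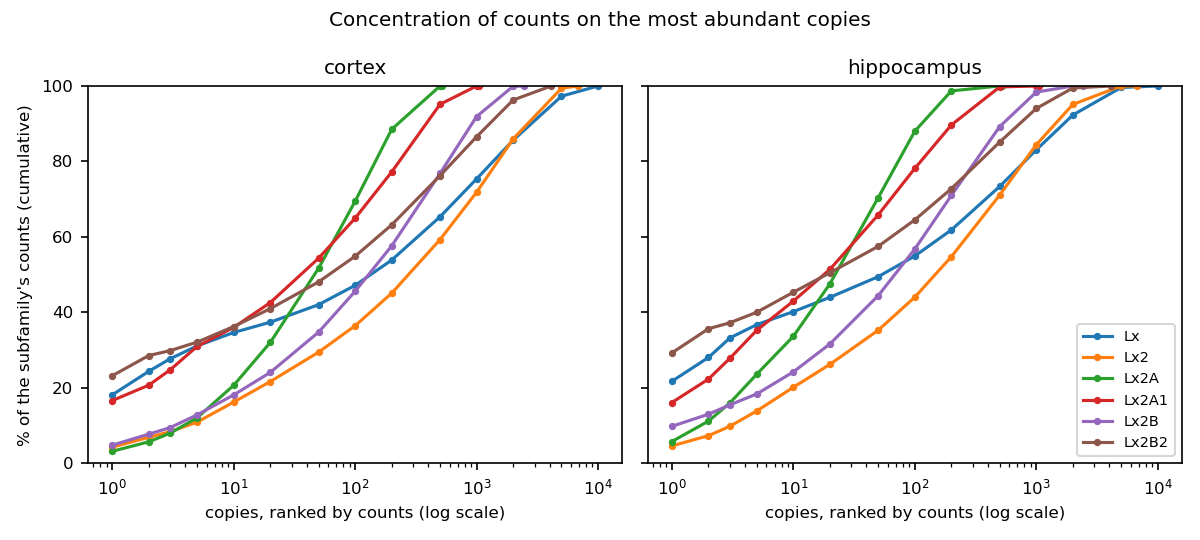
Cumulative percent of a subfamily's counts (y axis) against the number of its copies, ranked by counts on a log axis (x axis), in cortex and hippocampus, with a line for each subfamily. The lines of Lx, Lx2A1 and Lx2B2 start at 16.1% or above with the first copy, and those of Lx2, Lx2A and Lx2B at 9.83% or below.

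Levels of subfamilies are given as the percent of a library's L1 counts, which is not a level per base because copy lengths are not in the table. Lx had the highest share in both tissues. In cortex it was 2.60% ± 0.243 (SD, n = 48), between 1.59% and 3.07% with a median of 2.65%, and in hippocampus 2.37% ± 0.130 (n = 46), between 2.03% and 2.59% with a median of 2.39%. Lx2 and Lx2B2 came next and did not differ beyond their spread. Lx2 had 1.08% ± 0.222 in cortex and 0.894% ± 0.0973 in hippocampus, and Lx2B2 had 0.987% ± 0.0868 and 0.896% ± 0.0460. Lx2B had 0.364% ± 0.0965 and 0.306% ± 0.0403. Lx2A1 had 0.140% ± 0.0414 and 0.106% ± 0.0164, and Lx2A, the smallest subfamily, 0.0526% ± 0.0252 and 0.0447% ± 0.0110. Together, members held 5.38% of all L1 counts of cortex and 4.65% of those of hippocampus.

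**Figure D2:**
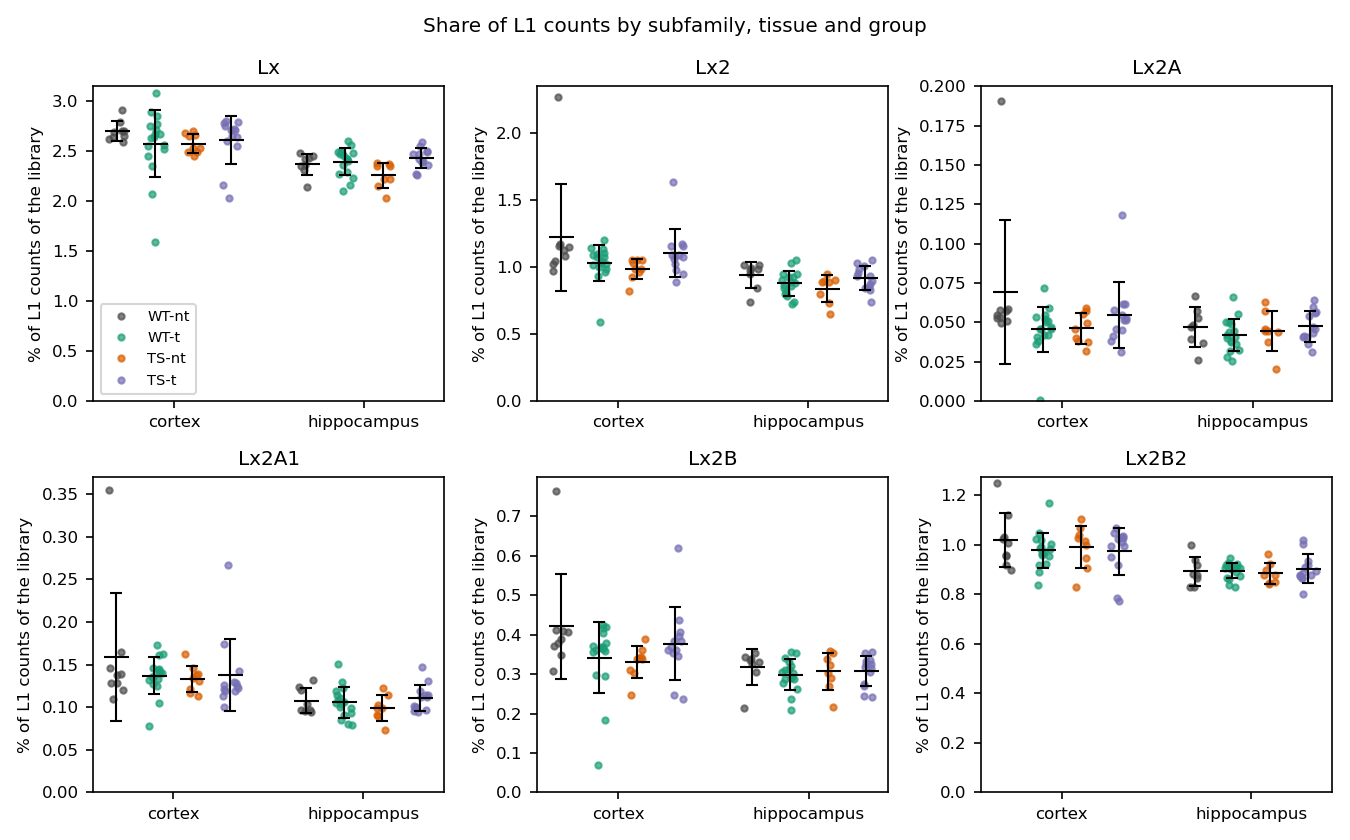
Share of L1 counts in percent (y axis) of each of the 6 subfamilies in every library, as points by group and tissue, with the group mean and SD. The groups overlap in each panel, and WT-nt mouse 1 in cortex lies above the other WT-nt libraries in Lx2 (2.27%), Lx2A (0.191%), Lx2A1 (0.355%) and Lx2B (0.764%).

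Over all libraries, the mean share of counts of each of the 6 subfamilies was higher in cortex than in hippocampus. Of the 46 mice with both tissues, the share was higher in cortex in 41 for Lx, 44 for Lx2, 28 for Lx2A, 37 for Lx2A1, 38 for Lx2B and 40 for Lx2B2. For Lx2A these were 6 of 8 WT-nt and 12 of 17 WT-t mice, but 4 of 8 TS-nt and 6 of 13 TS-t mice. Summed counts of each subfamily entered edgeR's quasi-likelihood test, and p-values were adjusted over 133 subfamilies, with a threshold of 0.1. This test took all libraries as independent and did not pair the tissues of a mouse. A fit with the mouse as a replicate block was an alternative. The log2 fold change is that of the mean of the 4 cortex groups over the mean of the 4 hippocampus groups. It was 0.18 for Lx (SE 0.02, adjusted p = 1.75e-11), 0.32 for Lx2 (SE 0.05, adjusted p = 1.55e-07) and 0.48 for Lx2A1 (SE 0.08, adjusted p = 1.74e-07). For Lx2B2 it was 0.19 (SE 0.03, adjusted p = 1.69e-06), for Lx2B 0.29 (SE 0.07, adjusted p = 9.97e-05) and for Lx2A 0.30 (SE 0.11, adjusted p = 0.0176). Between tissues, 37.6% of all subfamilies were called higher and 32.3% lower in cortex, so that a called difference was common. Of the 15 subfamilies named Lx3 to Lx10, 9 were called higher and 1 lower, and the 6 L1Md subfamilies were all called higher. The call for Lx2A was lost with the mouse as a replicate block (log2 fold change 0.18, adjusted p = 0.16) and with treated mice limited to label 20 (0.26, adjusted p = 0.140). Without the 8 cortex libraries that stood apart, all 6 were called, at 0.15 for Lx, 0.22 for Lx2, 0.12 for Lx2A, 0.29 for Lx2A1, 0.22 for Lx2B and 0.13 for Lx2B2.

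More copies of the subfamilies were also seen in cortex. At a common depth of 178454 L1 counts, the expected number of members with a count was 2301 ± 622 in cortex (SD, n = 48, between 144 and 3534, median 2321) and 1804 ± 417 in hippocampus (n = 46, between 974 and 2760, median 1780). The tissues overlapped widely, and 35 of 46 mice had more copies in cortex. Over all L1 copies, a count in at least 1 library was also more common in cortex (81.5%, beside 63.0% in hippocampus). The number at a common depth was not computed for all L1 copies, so that no trait particular to the members is shown. The lowest cortex value was that of WT-t mouse 1.

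Single copies between tissues were tested for the 421 members that passed the filter over all 94 libraries, of 7551 L1 copies that did. The tissues of a mouse were not paired in this test either. In cortex, 80 members were higher and 23 lower, 19% and 5.46% of those tested. Of all L1 copies tested, 12.2% were higher and 10.4% lower. The median log2 fold change was 0.22 over the members and 0.09 over all copies. This split depended on the scaling, and it was 100 higher and 15 lower with DESeq2's size factors, where the median of all copies was 0.22 and 18.9% of them were called higher and 8.04% lower. With library totals it was 57 and 40, where the median was -0.04 and the shares of all copies were 8.99% and 15.4%. Without the 8 cortex libraries that stood apart, 101 of 403 members were higher and 26 lower (25.1% and 6.45%), and of all 7183 copies 17.7% and 11.7%. Lx gave 39 higher and 12 lower of 203 copies, Lx2 18 and 6 of 95, and Lx2B2 13 and 2 of 77. Lx2B gave 6 and 2 of 32, Lx2A1 4 and 0 of 10, and Lx2A 0 and 1 of 4.

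**Figure D3:**
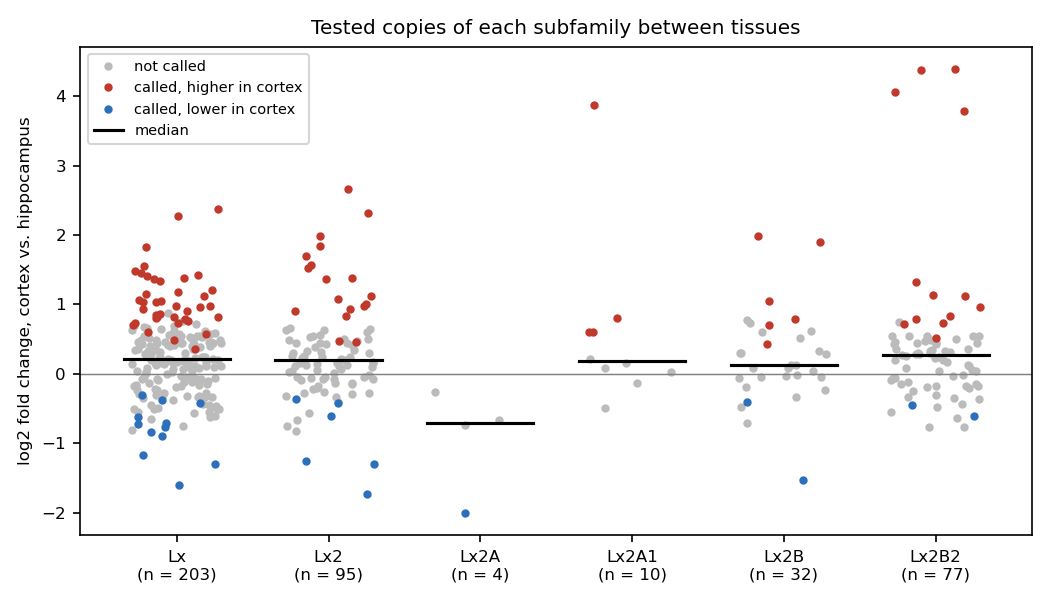
Log2 fold change of cortex vs. hippocampus (y axis) of every member tested between tissues, by subfamily (x axis, with the number of copies), from edgeR's fit. Red points are copies called higher in cortex, blue points copies called lower and grey points copies not called, and the black line is the median of a subfamily. Of the 421 points, 80 are red and 23 blue, and the 4 copies of Lx2A all lie below 0.

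The copies with the smallest p-values between tissues were close to absent from hippocampus or several times lower there. Levels of single copies are given as CPM, counts per 1e+06 counts that the library had on the copies that passed the filter, scaled with TMM factors. Those copies held between 25.1% and 75.1% of a library's L1 counts (median 59.3%) in the fit over both tissues, so that a CPM is higher than it would be per all L1 counts. Comparisons between tissues use the copies and factors of that fit and comparisons within a tissue those of the tissue's own fit, and the CPM of a library differs between them. Lx2_dup13784 had between 0 and 431 CPM in cortex, with a median of 185, and between 0 and 116 CPM in hippocampus, with a median of 31.0. It was higher in cortex in 43 of 46 mice (log2 fold change 2.67, SE 0.23, adjusted p = 1.32e-23). Lx2B2_dup10408 had a median of 76.9 CPM in cortex (0 to 191) and of 0 CPM in hippocampus (0 to 94.9), where 17 of 46 libraries had a count. It was higher in cortex in 44 mice and in hippocampus in 0 (log2 fold change 3.78, SE 0.37, adjusted p = 8.38e-19). Lx2B2_dup3356 had a count in 45 of 48 cortex libraries, with a median of 37.0 CPM and a highest value of 131 CPM, and in 7 of 46 hippocampus libraries, with a highest value of 38.0 CPM. Its log2 fold change was 4.39 (SE 0.49, adjusted p = 6.34e-15). Lx_dup1329 was an abundant copy and was higher in cortex in 46 of 46 mice. It had between 295 and 3964 CPM in cortex, with a median of 916, and between 49.4 and 856 CPM in hippocampus, with a median of 177 (log2 fold change 2.28, SE 0.21, adjusted p = 2.26e-15). The ranges of these copies overlapped between tissues. Lx2_dup13613 had a median of 136 CPM in cortex (0 to 595) and of 19.4 CPM in hippocampus (0 to 139), and its log2 fold change was 2.32 (SE 0.27, adjusted p = 1.38e-12).

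The copies lower in cortex differed less. Lx_dup23340 had between 190 and 910 CPM in cortex, with a median of 454, and between 329 and 1053 CPM in hippocampus, with a median of 714. It was higher in hippocampus in 40 of 46 mice (log2 fold change -0.62, SE 0.12, adjusted p = 1.02e-05). Lx_dup23168 had medians of 18.3 CPM in cortex (0 to 130) and 62.9 CPM in hippocampus (0 to 187), with a log2 fold change of -1.60 (SE 0.32, adjusted p = 1.56e-05). Lx_dup9215 had medians of 123 CPM (0 to 235) and 194 CPM (57.6 to 394), with a log2 fold change of -0.84 (SE 0.17, adjusted p = 3.98e-05). For both, values of the tissues overlapped. Lx_dup22501 had medians of 40.2 CPM in cortex (0 to 119) and 99.2 CPM in hippocampus (0 to 368) and a log2 fold change of -1.17 (SE 0.24, adjusted p = 4.38e-05). Lx2A_dup355 was the called copy of Lx2A, with medians of 5.54 CPM in cortex (0 to 65.2) and 38.8 CPM in hippocampus (0 to 139) and a log2 fold change of -2.0002 (SE 0.43, adjusted p = 7.73e-05).

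The 5 most abundant copies of each tissue were 6 copies in all, of which 2 were called higher in cortex, Lx_dup1329 (above) and Lx_dup15579, 1 lower, and 3 did not pass the test. Lx_dup18222, the copy with the most counts, had 9147 ± 2521 CPM in cortex (n = 48, between 1444 and 15311, median 9504) and 8584 ± 1495 CPM in hippocampus (n = 46, between 6180 and 12225, median 8425), with a log2 fold change of 0.14 (SE 0.09, adjusted p = 0.311). Lx2B2_dup4157 had 4457 ± 1320 CPM and 4358 ± 613 CPM, with a log2 fold change of 0.05 (SE 0.09, adjusted p = 0.780). For both copies, the tissues overlapped. Lx_dup15579 had 3111 ± 1015 CPM in cortex and 2478 ± 731 CPM in hippocampus and was called higher (log2 fold change 0.36, adjusted p = 0.0054). Lx_dup11195 went the other way, with 1649 ± 395 CPM and 2052 ± 403 CPM (log2 fold change -0.31, adjusted p = 0.0182), and was higher in hippocampus in 39 of 46 mice. Lx2B2_dup4183 had 1024 ± 454 CPM in cortex and 962 ± 373 CPM in hippocampus, with a log2 fold change of 0.04 (SE 0.12, adjusted p = 0.849).

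To ask whether trisomy changes the subfamilies, TS-nt was compared with WT-nt. In cortex, none of the 6 subfamilies passed the threshold, and 5 had an unadjusted p-value below 0.05 in edgeR's test, all with lower counts in TS-nt. Lx2 had shares between 0.971% and 2.27% in the 9 WT-nt mice, with a median of 1.13%, and between 0.819% and 1.06% in the 9 TS-nt mice, with a median of 0.986%. The groups overlapped. Its log2 fold change was -0.47 (SE 0.15, adjusted p = 0.125). Lx2B had a median of 0.390% in WT-nt (0.307% to 0.764%) and of 0.339% in TS-nt (0.247% to 0.388%), with a log2 fold change of -0.51 (SE 0.19, adjusted p = 0.125). Lx2A had medians of 0.0544% and 0.0460% and a log2 fold change of -0.83 (SE 0.31, adjusted p = 0.125). Values for Lx, Lx2A1 and Lx2B2 were -0.15 (SE 0.06, adjusted p = 0.127), -0.44 (SE 0.21, adjusted p = 0.204) and -0.14 (SE 0.10, adjusted p = 0.371). Of all subfamilies, 0.752% were called in this comparison. DESeq2 called 3 of the 6, Lx, Lx2 and Lx2B, and 20 of all 133 subfamilies.

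The size of these differences rested on WT-nt mouse 1, the library with the largest L1 total. Without it, the log2 fold change was -0.06 for Lx, -0.14 for Lx2, -0.23 for Lx2A, -0.001 for Lx2A1, -0.19 for Lx2B and 0.01 for Lx2B2, with adjusted p-values between 0.79 and 0.996. Without WT-nt mouse 3, 5 or 6, by contrast, 4 of the 6 were called, with 16.5%, 17.3% and 12.8% of all subfamilies. In hippocampus, where no library stood apart on the first principal component, Lx had a log2 fold change of -0.07 (SE 0.03) and Lx2 of -0.17 (SE 0.07), each with an adjusted p of 0.335, and none of the 6 subfamilies was called in edgeR's test. Of all subfamilies, 0% were called there. The difference between tissues in the change of TS-nt vs. WT-nt was called for no subfamily (0% of all), and its smallest adjusted p for the 6 was 0.60.

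**Figure D4:**
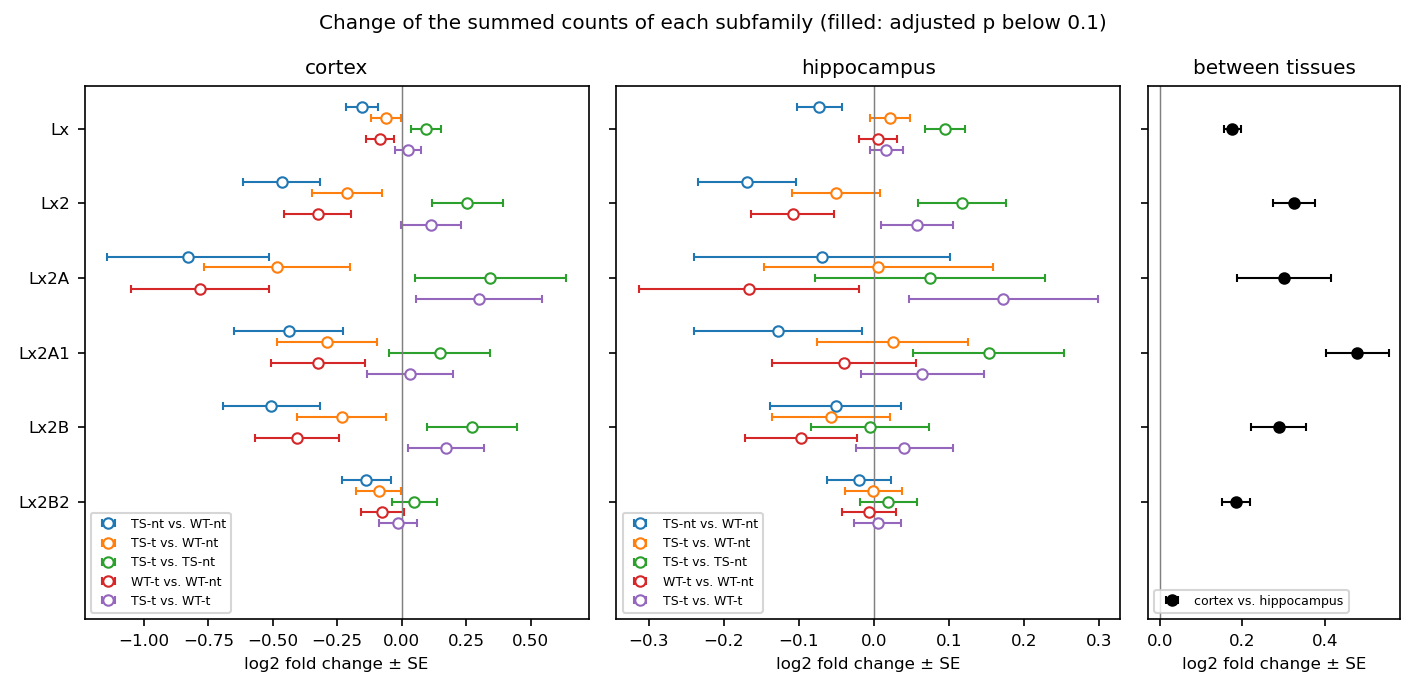
Log2 fold change with its SE (x axis) of the summed counts of each subfamily (y axis) in 5 comparisons within cortex, in the same 5 within hippocampus and between tissues, from edgeR's fit, where filled points passed the threshold of 0.1. The x axes differ between the panels. The values of TS-nt vs. WT-nt in cortex reach -0.83 for Lx2A, no point within a tissue is filled, and all 6 between tissues are.

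Lamivudine was compared in both genotypes. In cortex of WT mice, Lx2, Lx2A and Lx2B had log2 fold changes of -0.33 (SE 0.13), -0.78 (SE 0.27) and -0.40 (SE 0.16) in WT-t vs. WT-nt, each with an unadjusted p-value below 0.05 and an adjusted p of 0.299, and WT-nt mouse 1 was in this control group too. In TS mice the values of TS-t vs. TS-nt were 0.25 (SE 0.14), 0.34 (SE 0.29) and 0.27 (SE 0.18), each with an adjusted p of 0.680. The interaction of treatment and genotype was 0.18 for Lx, 0.58 for Lx2, 1.13 for Lx2A and 0.68 for Lx2B, with unadjusted p-values below 0.05 and adjusted p-values between 0.164 and 0.182. DESeq2 called Lx and Lx2 for the interaction, with 11.3% of all subfamilies. Without the 8 libraries that stood apart, the changes in WT mice were -0.02, -0.19 and -0.02 for Lx2, Lx2A and Lx2B, and the interaction was 0.05 for Lx, 0.15 for Lx2, 0.32 for Lx2A and 0.16 for Lx2B. With treated mice limited to label 20, only WT-t mice 15, 16 and 17 were left in that group, and the library of mouse 16 was among the 8 that stood apart. The changes in WT mice were then -0.32, -0.75 and -0.32, and the interaction was 0.17, 0.43, 0.92 and 0.47, each with an adjusted p of 0.68 or more. So few WT-t mice cannot separate treatment from the kind of number. In TS-t vs. WT-nt, which shares its controls with the other comparisons, the log2 fold changes were between -0.48 (Lx2A) and -0.06 (Lx) with a smallest adjusted p of 0.758, and in TS-t vs. WT-t none had an unadjusted p-value below 0.05. None of the 6 was called in any of these comparisons in edgeR's test. Of all subfamilies, TS-t vs. WT-nt called 0.752% and the other 4 comparisons 0%.

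Hippocampus gave its smallest p-value for a subfamily to Lx. In TS-nt mice its share was between 2.03% and 2.37%, with a median of 2.28% (n = 8), and in TS-t mice between 2.26% and 2.58%, with a median of 2.42% (n = 13), so that the groups overlapped. The log2 fold change of TS-t vs. TS-nt was 0.09 (SE 0.03, unadjusted p = 0.000888, adjusted p = 0.117 in edgeR's test), and DESeq2 gave an adjusted p of 0.0159 and called 1.52% of all subfamilies. With treated mice limited to label 20 it was 0.09 (adjusted p = 0.531). Lx_dup18222 held 21.8% of the Lx counts in hippocampus, and its own log2 fold change in TS-t vs. TS-nt was 0.33 (SE 0.11). The value for Lx thus includes the change of its most abundant copy. The other 5 subfamilies had adjusted p-values of 0.527 or more. The interaction was 0.23 for Lx2 (SE 0.08) and 0.09 for Lx (SE 0.04), each with an adjusted p of 0.494. Adjusted p-values were 0.974 or more for TS-t vs. WT-nt, where 1.52% of all subfamilies were called. For WT-t vs. WT-nt they were 0.831 or more, and 0% of all subfamilies were called there and in the remaining comparisons.

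Single copies within cortex gave no call. In edgeR's test with a threshold of 0.1, 0 of the 303 members tested were called in any of the 6 comparisons, and 0% of all 5416 copies were, and DESeq2 called 0 members as well. Unadjusted p-values below 0.05 were found for 4 members in TS-nt vs. WT-nt (1.51% of all copies), 9 in TS-t vs. WT-nt (of all copies 1.75%), 5 members in WT-t vs. WT-nt (1.59% of all), 1 member in TS-t vs. TS-nt (0.905%), 9 members in TS-t vs. WT-t (1.96%) and 9 for the interaction (1.11%). In hippocampus, 1 of 206 members was called, in TS-nt vs. WT-nt, where 0.0708% of all 4238 copies were. For TS-t vs. WT-nt the share of all copies was 0.0472%, with 0 members, and in the other 4 comparisons 0%. Members with an unadjusted p-value below 0.05 numbered 12 in TS-nt vs. WT-nt (4.03% of all copies), 7 in TS-t vs. WT-nt (of all copies 4.25%), 8 members in WT-t vs. WT-nt (3.16% of all), 8 members in TS-t vs. TS-nt (3.26%), 5 members in TS-t vs. WT-t (3.94%) and 6 for the interaction (3.11%). The difference between tissues of TS-nt vs. WT-nt gave 0 calls among 421 members (0% of all 7551 copies) and 8 members with an unadjusted p-value below 0.05 (1.77% of all copies).

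The member called was Lx_dup7185, in hippocampus. Of the 8 WT-nt libraries, 1 had a count (20.01 CPM, mouse 3) and the other 7 had none. Of the 8 TS-nt libraries, 7 had counts, with a lowest value of 0, a median of 60.4 and a highest value of 142 CPM. The groups overlapped through the TS-nt library without a count and the WT-nt library with one. Its summed counts were 77 in TS-nt and 3 in WT-nt, a ratio of 25.2 after scaling (95% interval 8.32 to 125, exact, for counting error). The interval does not cover the spread between mice. The log2 fold change was 4.27 (SE 1.01, adjusted p = 0.0851).

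Lx_dup7185 had counts in the treated groups as well. In hippocampus, 13 of 17 WT-t libraries (median 27.8 CPM, highest 156 CPM) and 11 of 13 TS-t libraries (median 51.2 CPM, highest 124 CPM) had a count. WT-nt was thus the low group, and the log2 fold changes against it were 3.90 for TS-t (adjusted p = 0.121) and 3.79 for WT-t (adjusted p = 0.564). In cortex, 3 of 9 WT-nt libraries had a count, and mouse 2 held 15 of their 19 counts (91.4 CPM). The TS-nt group had a count in 7 of 9 libraries, with a median of 60.7 CPM and a highest value of 128 CPM. The log2 fold change in cortex was 2.34 (SE 0.84, unadjusted p = 0.00672, adjusted p = 0.999). The ratio of summed counts was 5.65 (95% interval 3.45 to 9.74, for counting error only). This interval leaves out the spread between mice and is no test of the groups. Presence was shared by the tissues of a mouse, since 28 of 46 mice had a count in both, 9 in neither, 5 in cortex alone and 4 in hippocampus alone. The call in hippocampus was lost when counts were scaled with library totals (adjusted p = 0.128) and in 12 of 16 fits that left out 1 WT-nt or TS-nt library. Its fitted log2 fold change stayed between 4.005 and 4.46 in 15 of these fits and was 6.27 (adjusted p = 0.0133) without WT-nt mouse 3, where no WT-nt library had a count left and the value depends on the prior count.

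Some of the other members with the smallest p-value in a comparison are given here, and none of them passed the threshold. In cortex, Lx2_dup4332 had between 27.6 and 183 CPM in WT-nt (median 65.9) and between 0 and 58.0 CPM in TS-nt (median 20.1), with a log2 fold change of -1.70 (SE 0.70, unadjusted p = 0.0158). Lx2B2_dup4185 had a count in 9 of 9 WT-nt libraries, with a median of 54.2 CPM (24.4 to 151), and a median of 29.3 CPM in TS-t (0 to 62.2), with a log2 fold change of -1.44 (SE 0.65). Both pairs of groups overlapped. Lx2_dup13613, which was also higher in cortex than in hippocampus, had a median of 201 CPM in TS-t (43.4 to 678) and of 114 CPM in WT-t (0 to 238), with a log2 fold change of 1.168 (SE 0.34, unadjusted p = 0.000766, adjusted p = 0.999). In the interaction of cortex, Lx_dup6736 had the smallest p-value upward, with means of 51.2 CPM in WT-nt, 23.5 in WT-t, 30.8 in TS-nt and 70.8 in TS-t (log2 fold change 2.27, SE 0.87). Lx2_dup7465 had the smallest downward, with means of 22.1, 60.9, 49.8 and 25.2 CPM in the same order (log2 fold change -2.39, SE 0.96).

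In hippocampus, Lx2_dup12475 had a median of 52.5 CPM in WT-nt (20.4 to 165), of 18.3 CPM in TS-nt (0 to 71.6) and of 78.2 CPM in TS-t (0 to 148). The log2 fold change of TS-nt vs. WT-nt was -1.82 (SE 0.65, adjusted p = 0.904) and that of TS-t vs. TS-nt 1.79 (SE 0.61, adjusted p = 0.9996). Groups overlapped in both comparisons. Lx_dup23158 had a median of 91.4 CPM in WT-nt (14.1 to 185), 31.8 CPM in TS-nt (0 to 61.1), 23.5 CPM in WT-t (0 to 96.1) and 26.0 CPM in TS-t (8.39 to 58.3), and WT-nt was the high group, with overlap. Its log2 fold change of TS-t vs. WT-nt was -1.69 (SE 0.58, adjusted p = 0.731). The abundant Lx_dup18222 had medians of 7934 CPM in WT-nt (6414 to 10250) and 7732 CPM in TS-nt (6752 to 10455), and of 9115 CPM in WT-t (8301 to 12478) and 9888 CPM in TS-t (7729 to 12948). Treated groups lay higher with overlap, and the log2 fold change was 0.33 (SE 0.11, unadjusted p = 0.00259, adjusted p = 0.9996) for TS-t vs. TS-nt and 0.27 (SE 0.10, unadjusted p = 0.0107) for WT-t vs. WT-nt. Its log2 fold changes in cortex were 0.12 (SE 0.19) and 0.09 (SE 0.18) for the same comparisons.

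The study lists 3 members, and these were chosen on the same samples, so that the values are no independent evidence of their direction. Lx2_dup14390 lies at chr13:78238594-78243878 on the minus strand of mm10, is 5285 bases long and is in an intron of the antisense gene A830082K12Rik, with no exon of it. In cortex it had between 148 and 692 CPM in WT-nt (median 430) and between 436 and 1454 CPM in TS-t (median 728), with overlap. The WT-nt mean was 406 ± 166 CPM (SD, n = 9) and the TS-t mean 798 ± 278 (n = 13), with WT-t at 584 ± 182 (n = 17) and TS-nt at 598 ± 240 (n = 9) between them. The log2 fold change of TS-t vs. WT-nt was 0.97 (SE 0.29, unadjusted p = 0.000798, adjusted p = 0.999), and without the 8 cortex libraries that stood apart the adjusted p was 0.0688, where 0.0185% of all copies were called. It was higher in cortex than in hippocampus in 40 of 46 mice (log2 fold change 0.84, adjusted p = 5.05e-08).

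The other 2 members of that list were too sparse to pass the filter in cortex and their mean CPM was compared by exact permutation (two-sided). The study lists them for this same comparison in these libraries, so that small p-values follow from the choice and are no evidence of a difference. The p-values are not adjusted over other copies. Lx_dup9578 lies at chr7:67331245-67333676 on the plus strand, is 2432 bases long and is in an intron of Mef2a, which is on the minus strand and encodes a transcription factor. In cortex 8 of 9 WT-nt libraries had a count, with a median of 12.0 CPM and a highest value of 70.1 CPM, and 2 of 13 TS-t libraries did, with a highest value of 5.09 CPM. Means were 20.7 ± 22.6 and 0.753 ± 1.84 CPM (exact permutation p = 6.43e-05). Of the TS-nt cortex libraries, 4 of 9 had a count (highest 62.2 CPM), and of the WT-t cortex libraries 4 of 17 (highest 45.2 CPM). Lx_dup5779 lies at chr4:78283974-78284429 on the plus strand, is 456 bases long and overlaps no annotated gene. The nearest gene, the pseudogene Gm11260, is 49047 bases away. In cortex 13 of 13 TS-t libraries had a count, between 15.6 and 118 CPM with a median of 34.4 CPM, and 3 of 9 WT-nt libraries did, with a highest value of 20.4 CPM. Means were 44.7 ± 30.2 and 4.16 ± 7.22 CPM (exact permutation p = 2.01e-05). It was also present in TS-nt cortex, in 8 of 9 libraries (median 30.6 CPM), and in WT-t cortex, in 9 of 17 (median 5.66 CPM). In hippocampus Lx_dup5779 had 0 counts in the 8 WT-nt and the 8 TS-nt libraries, which allows up to 2.51 and 2.47 CPM over the group (3 counts, for counting error). Treated mice had a count there in 7 of 17 WT-t libraries (15 counts in total) and in 1 of 13 TS-t libraries (5 counts).

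Some copies varied between mice in the same way in both tissues. Over the 184 members tested in both, the median Pearson r of log2 CPM across 46 mice was 0.139, and it was above 0.5 for 11 (5.98%). Over all 3722 copies tested in both tissues, the median was 0.108 and 132 (3.55%) were above 0.5. Both tissues of a mouse share its genotype and treatment group. The members named next were chosen by this likeness, and their values are a description. Lx2_dup7405 had between 166 and 5321 CPM in cortex and between 112 and 2420 CPM in hippocampus, with Pearson r 0.819 and Spearman rho 0.804 on log2 CPM. Without the 2 mice farthest from the cortex median, r was 0.772 on log2(CPM + 1).

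For Lx_dup12630 and Lx2B2_dup8735, mice were split into low and high at the widest gap of the hippocampus values above a low floor, on a log scale. Such a cut always gives a low and a high set, so that the split itself is no result. No r is given for these copies. For Lx_dup12630, 23 mice had at least 37.3 CPM in hippocampus, and their cortex values were between 54.3 and 245 CPM. The other 23 mice had at most 22.7 CPM in hippocampus and between 0 and 66.0 CPM in cortex, so that the sets overlapped in cortex. High mice were found in every group, 3 of 8 in WT-nt, 6 of 17 in WT-t, 5 of 8 in TS-nt and 9 of 13 in TS-t. For Lx2B2_dup8735, 40 mice had at least 90.1 CPM in hippocampus, with a median of 298 CPM in cortex. Of these 40, 39 had between 105 and 616 CPM in cortex, and WT-t mouse 1, whose cortex library stood apart, had 0 CPM there and 222 CPM in hippocampus. The other 6 mice had at most 34.7 CPM in hippocampus and between 0 and 43.4 CPM in cortex. These 6 were treated mice, 4 of 13 in TS-t and 2 of 17 in WT-t, with 0 of 8 in WT-nt and 0 of 8 in TS-nt. The non-treated TS-nt mouse 9 has no hippocampus library and was not in the split. It had 39.6 CPM in cortex, within the range of the low set, so that low levels were not limited to treated mice. The difference between groups was not tested.

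**Figure D5:**
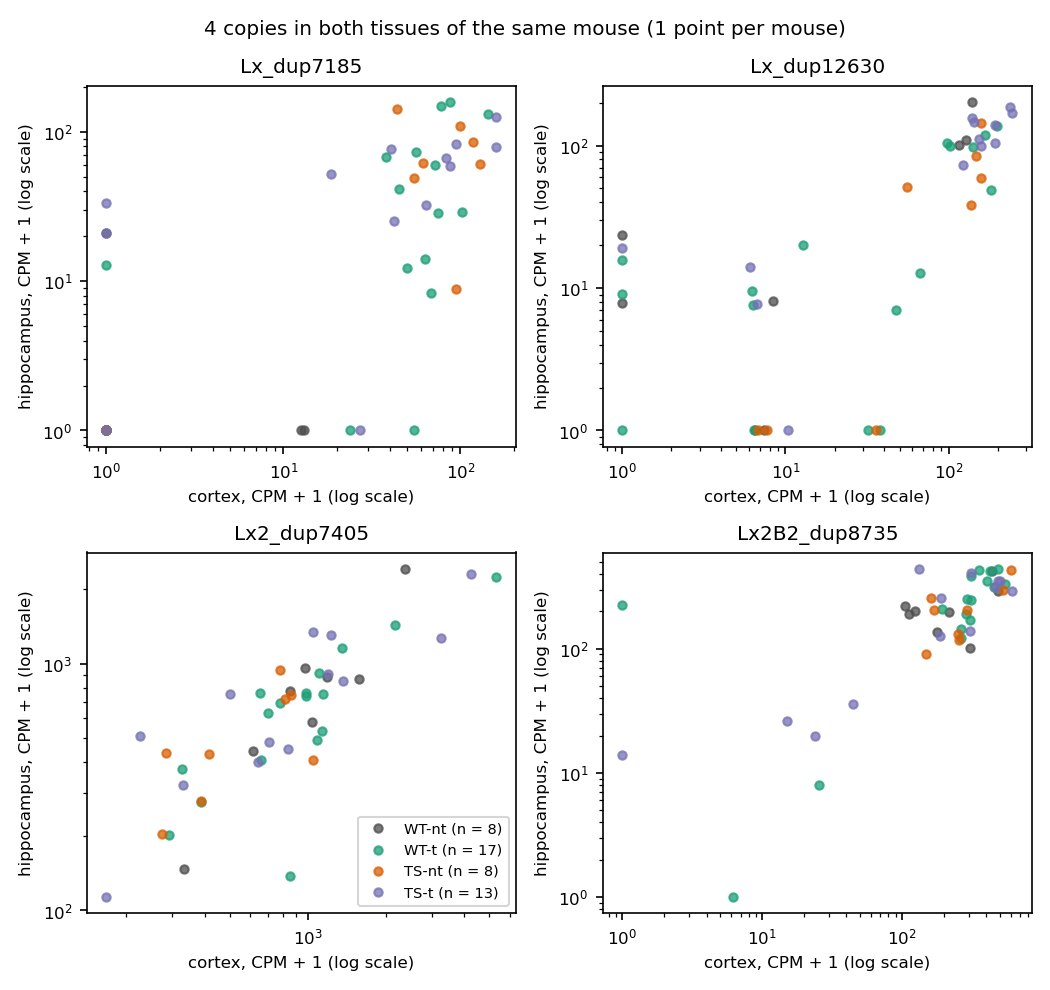
CPM + 1 in hippocampus (y axis, log scale) against CPM + 1 in cortex (x axis, log scale) of the same mouse, for Lx_dup7185, Lx_dup12630, Lx2_dup7405 and Lx2B2_dup8735, with a point for each of 46 mice coloured by group. For Lx_dup12630 the 23 mice with at least 37.3 CPM in hippocampus include mice of all 4 groups.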

How the data were processed

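Total RNA of cortex and hippocampus was extracted with RNeasy Plus Mini and sequenced from stranded, ribosomal RNA-depleted libraries. Reads were trimmed (Trimmomatic 0.38) and aligned by the authors with HISAT2 2.1.0 to GRCm38/mm10. Telescope then counted reads on single L1 copies and gave a read that aligned to several copies to the likeliest of them, so that reads can move between similar copies. The deposited counts were whole numbers without normalization, and all columns were used. Copies were filtered with filterByExpr (minimum 10 counts, 15 in total), scaled with TMM (library sizes are the counts on copies that passed) and tested with edgeR 4.0.16 (R 4.3.3, two-sided, 4 groups per tissue in 1 model, 8 groups between tissues), with Benjamini-Hochberg adjustment over all copies or subfamilies tested. DESeq2 1.42.0 and other settings were alternatives. The fit was tested on simulated data. Fold changes of sparse copies depend on the fit's prior count. Log2 CPM used a prior count of 2. Positions in mm10 were compared with GENCODE.

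Members and lists were chosen with earlier results of these data known. Chosen for naming were all subfamilies, copies the study lists, members called within a tissue and the smallest p-value per direction and comparison. Of the last, only some are described. Also chosen were the 5 most abundant per tissue, the 5 smallest adjusted p-values per direction between tissues and the 3 most alike in both tissues of a mouse. The label of a mouse pairs its tissues, and the main fits did not use this pairing. Deviations of a mouse's libraries from their group means correlated with a median r of 0.127 over 46 mice. Leaving out single cortex libraries and limiting mice to label 18 or 19 were alternatives added after the results were seen. Intervals cover counting error only.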

Additional observations from a re-analysis of the deposited data

Results flagged for a closer look

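Dixon's test at the 95% level was applied to 66 groups of 8 or 9 libraries. In 10 of them, the distance of a library to its nearest neighbour was large for the range of the group. Chance passes the test in about 1 of 20 groups of normally distributed values. Many single-copy values were 0 and groups share libraries, so that this rate cannot be set against the 10. Of the 10 flagged, 4 were shares of L1 counts in cortex of WT-nt mouse 1, the library with the largest L1 total. They were 2.27% for Lx2, 0.191% for Lx2A, 0.355% for Lx2A1 and 0.764% for Lx2B. The same mouse had the lowest WT-nt share of Lx2B in hippocampus, 0.213%.

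The other five were single copies. In cortex of TS-nt mice, the highest library had 107 CPM for Lx2B_dup4190 (mouse 9), 160.0 CPM for Lx2_dup7465 (mouse 1, which stood apart on the first principal component) and 62.2 CPM for Lx_dup9578 (mouse 9). For Lx_dup7185, the highest WT-nt library had 91.4 CPM in cortex (mouse 2) and 20.01 CPM in hippocampus (mouse 3). The latter was the only WT-nt hippocampus library with a count, so that its flag was certain.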

How the results depend on the processing

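Single copies had few counts, and 303 members passed the filter in cortex, with 206 in hippocampus. Under DESeq2, 3 subfamilies were called in cortex for TS-nt vs. WT-nt, 2 for the interaction in cortex and 1 in hippocampus for TS-t vs. TS-nt, and DESeq2's size factors in edgeR also gave 1 there. Leaving out single cortex libraries gave between 0 and 4 called subfamilies for TS-nt vs. WT-nt, and the log2 fold change of Lx2B2 was between -0.17 and 0.012 and turned positive without WT-nt mouse 1 (0.012) and without the 8 libraries that stood apart (0.010). Without those 8, 1 member was called in cortex for TS-t vs. WT-nt (Lx2_dup14390, with 0.0185% of all copies). The call of Lx_dup7185 in hippocampus became 0 with library totals, with a threshold of 0.05, with the 2 groups alone and with no filter, and leaving out single libraries gave between 0 and 1, with a loss in 12 of 16 cases (adjusted p between 0.0133 and 0.343). Between tissues, the replicate block for the mouse gave 103 of 410 members (75 higher and 28 lower in cortex, with 13.3% and 12.7% of all copies) and 5 subfamilies (Lx2A was lost, 0.18), and no other call of a subfamily or named copy changed. Mice with label 18 alone gave 0 of 923 members and 3 subfamilies (0.00602% of all copies and 18.8% of all subfamilies) and mice with label 19 alone 38 of 254 members (14.4% of all copies), with fewer libraries, and Lx2A was -0.000518 with label 19.

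The filter on low counts changed the numbers of calls. With at least 10 counts in total, members called in cortex were 3241 and in hippocampus 943 for the genotype (TS-nt vs. WT-nt). In cortex, 28.0% of members were called, beside 20.8% of all copies. Lower in TS-nt were 23.0% of members and 14.6% of all copies, and higher 4.97% and 6.22%. Members called were 3961 and 878 when TS-t was compared with WT-nt. Against TS-nt they were 775 and 879, and against WT-t 1932 and 705. In cortex, these were 34.2%, 6.69% and 16.7% of members, beside 25.0%, 6.86% and 13.5% of all copies. Treatment of WT mice gave 3435 and 764 and the interaction 1071 and 781, in cortex 29.7% and 9.25% of members, beside 22.8% and 9.05% of all copies. Without a filter, the same comparisons gave 3776 and 0, 5304 and 955, 555 and 930, 3427 and 1294, 4368 and 695, and 918 and 603. Between tissues the filters gave 1718 and 1406 members, and 527 and 349 for the tissue difference of TS-nt vs. WT-nt. With at least 10 counts in total, 11581 members were tested in cortex and 6573 in hippocampus, and between 6.69% and 34.2% and between 10.7% and 14.3% of them were called, beside 6.86% to 25.0% and 10.6% to 14.5% of all L1 copies. Without a filter, 21212 and 14106 were tested, and the ranges were 2.62% to 25.0% and 0% to 9.17%, beside 2.98% to 18.4% and 0% to 9.27% of all copies. In cortex, the share of members lay above that of all copies in 5 of 6 comparisons under each of these filters, by up to 9.2 and 6.6 percentage points. In hippocampus, the share of members differed from that of all copies by at most 1.1 and 0.32 percentage points. Between tissues the members tested were 13440 and 23301, and their shares lay below those of all copies by at most 1.0 percentage points. For TS-nt vs. WT-nt in cortex with at least 10 counts in total, called members had a count in a median of 1 of 48 libraries and tested members in 7. The cause was not tested.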
